A study of Mus musculus with 6 samples.

Results

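The ephrins are the ligands of the Eph receptors, and their transcripts were followed in 6 mouse hearts, 3 with an EphB4 mutation and 3 wild-type. All 8 mouse ephrin genes considered here, Efna1 to Efna5 and Efnb1 to Efnb3, were taken by name, and no measured value decided membership. Earlier results of these data were known when they were chosen. Every probe set whose platform annotation named 1 of them alone was included. This gave 17 probe sets of 45037 on the array, for 8 of 18193 genes. A probe set is a group of short probes that report 1 transcript region, and its value is a log2 intensity, so a difference of 1 is a 2-fold difference.

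Ephrins work at the contact between neighbouring cells. A-class ephrins (Efna genes) are held on the membrane by a lipid anchor and mostly bind EphA receptors, whereas B-class ephrins (Efnb genes) span the membrane and mostly bind EphB receptors. Binding signals in both directions, forward into the cell with the receptor and in reverse into the cell with the ephrin. In the developing heart and vessels, ephrin-B2 marks arterial endothelium and is the main ligand of EphB4, a receptor of venous endothelium and endocardium, and mouse embryos without either protein fail to remodel their vessels and to build ventricular trabeculae.

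The mutant and the wild-type hearts came from C57B6 mice, and RNA of whole hearts was hybridised to Affymetrix Mouse430_2 arrays. The sources used here give neither the kind of EphB4 mutation nor the age or sex of the animals. Descriptions of the samples began with eM for mutant 3 and wild-type 3, and with eI for mutants 1 and 2 and wild-types 1 and 2, and the meaning of these letters was not stated either.

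The arrays differed most by those letters. Principal component 1, with 60.4% of the variance, ran from 34.1 to 52.6 in the 2 eM hearts, against -24.3 to -17.9 in the 4 eI hearts. Beta-actin control probes, a sign of RNA integrity, read higher at the 3-prime end than at the 5-prime end by 0.51 to 0.77 log2 in the eM hearts and 0.28 to 0.41 in the eI hearts. Xist, the RNA that silences a female's second X chromosome, was low in mutants 1 and 3 (6.73 and 6.78) and high in the other hearts (11.5 to 12.3). Sex and genotype were therefore partly confounded. Array medians lay between 5.89 and 6.01, and the number of arrays limited the precision throughout. Heart muscle markers were bright in all 6 hearts, with Myl2, a ventricular myosin light chain, between 14.58 and 14.74. Embryonic globins of red cells were bright as well, Hbb-y at 13.81 to 14.45. Liver markers varied widely, with Afp from 3.03 to 11.83. The mean of the 5 tested liver genes was 5.31 to 7.13 in mutant and 5.61 to 8.97 in wild-type hearts. Mutant hearts were lower at 5 of 5 (median -0.74), where 6638 of all 13572 tested genes were lower. In limma 0 of the 5 had an adjusted p under 0.05. The part of this signal in the ephrin values was not tested.

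Of the 17 ephrin probe sets, 14 had a mean above the level that removed the dimmest 40% of the array (5.38), and these were tested. At least 1 probe set of each of the 8 genes was among them. The 3 dim ones belonged to Efna3, Efna5 and Efnb2. The deposited values do not say how close to background a signal was, and levels of different probe sets cannot be set against each other, so each is described across the hearts.

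Mutant hearts did not differ from wild-type hearts at any ephrin past the threshold. In limma, 0 of 14 ephrin probe sets had an adjusted p under 0.05, and 0 of the 27022 tested probe sets of the array did (0%). At an unadjusted p under 0.05 there were 0 of 14 ephrin probe sets, against 1.17% of all tested. The ephrin differences, mutant minus wild-type, ran from -0.27 to 0.19 with a median of 0.02 (median over all tested probe sets 0.01), and 9 were positive and 5 negative. The 95% confidence intervals come from a fit without pairs or letters, so the spread between the letters is part of them. Their bound farthest from 0 ranged from a 1.19-fold difference, at an Efnb1 probe set, to a 1.88-fold one, at an Efna1 probe set. With the replicate number as a block that bound ranged from 1.19-fold, at Efna4, to 1.67-fold, at Efna1 1448510_at, and all 14 intervals spanned 0. For Efna4 the blocked interval was -0.25 to 0.25, and for Efnb3 it was -0.20 to 0.31. With the letters as a block instead, 13 of the 14 intervals spanned 0. The exception was Efnb1 1418285_at, at -0.53 to -0.018 (limma adjusted p = 0.998).

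**Figure D1:**
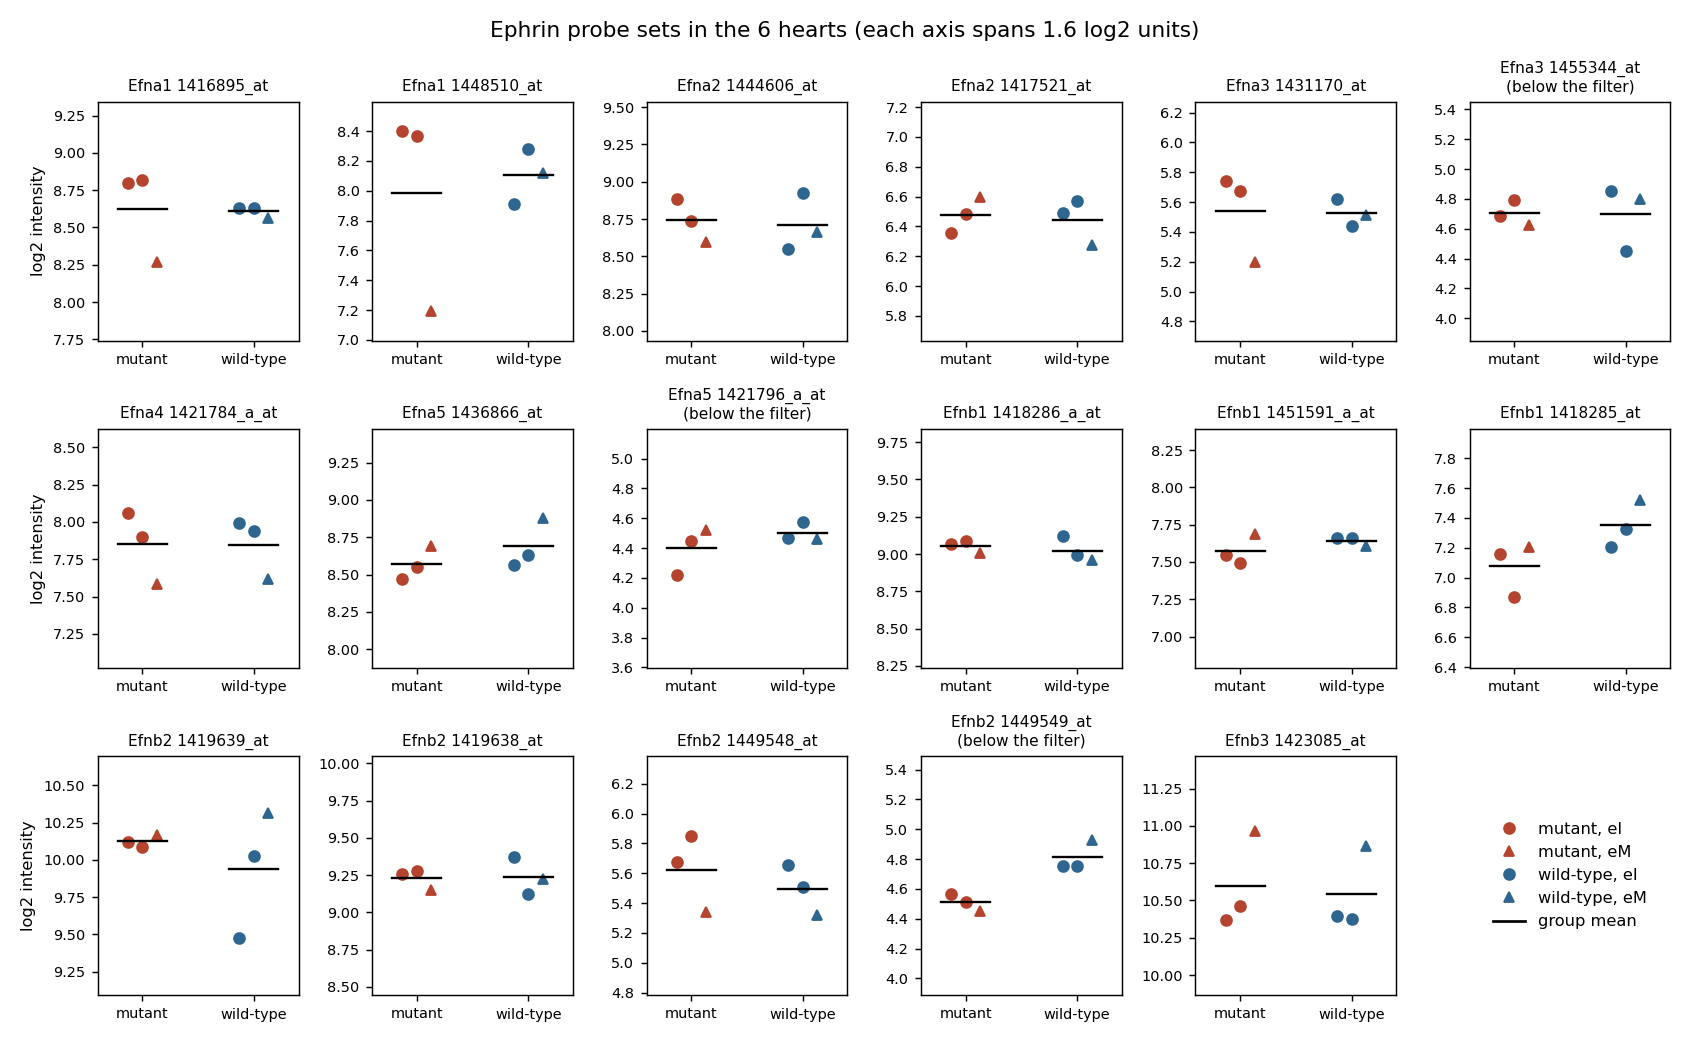
Log2 intensity of the 17 ephrin probe sets in each heart, mutant hearts left of wild-type hearts, with circles for eI hearts, triangles for eM hearts and a bar at each genotype's mean. The genotypes overlap in every panel except those of Efnb1 1418285_at and the dim Efnb2 1449549_at, and the eM hearts stand above the eI hearts at Efnb3.

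Among the B class, Efnb2 encodes ephrin-B2, which binds EphB4 and is named in the title of the series. Its brightest probe set, 1419639_at, read 10.12, 10.09 and 10.17 in mutant hearts 1 to 3, against 9.48, 10.03 and 10.31 in wild-type hearts 1 to 3. The mutant hearts lay close together and inside the wild-type range, and wild-type 1 was the lowest of all. The difference was 0.19 ± 0.21 (SE, n = 3 each; two-sided exact permutation p = 0.7), and without wild-type 1, an array that stood apart on principal component 2 (33.8, against -21.9 to 2.68 in the other hearts), it was -0.04.

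The other Efnb2 probe sets, all designed from the same transcript record, gave other patterns. Probe set 1419638_at read 9.26, 9.28 and 9.15 in mutant hearts and 9.37, 9.12 and 9.22 in wild-type hearts, a difference of -0.01 with a 95% interval of -0.26 to 0.24. Here the groups overlapped fully. Probe set 1449548_at, just above the filter, read 5.67, 5.85 and 5.34 in mutant hearts and 5.66, 5.51 and 5.32 in wild-type hearts. Its lowest heart in each genotype was the eM heart. The dim probe set 1449549_at read 4.56, 4.51 and 4.45 in mutant hearts, against 4.76, 4.76 and 4.93 in wild-type hearts, so that each mutant heart was below each wild-type heart (two-sided exact permutation p = 0.1, the smallest that 3 against 3 allows). The probe sets of Efnb2 thus disagreed in sign.

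Efnb1 encodes ephrin-B1, a B-class ligand whose gene lies on the X chromosome. Its brightest probe set, 1418286_a_at, had the smallest spread of any tested ephrin probe set, with 9.07, 9.09 and 9.01 in mutant hearts and 9.12, 8.99 and 8.96 in wild-type hearts (difference 0.03, 95% interval -0.19 to 0.26). The groups overlapped, and the hearts with low Xist, mutants 1 and 3, lay within the range of the others. Probe set 1451591_a_at likewise differed by -0.07, with 7.58 ± 0.10 in mutant and 7.64 ± 0.03 in wild-type hearts (SD, n = 3 each).

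The remaining Efnb1 probe set was the single tested ephrin probe set whose genotypes did not overlap. Probe set 1418285_at read 7.16, 6.87 and 7.20 in mutant hearts and 7.21, 7.33 and 7.52 in wild-type hearts, and the gap between the closest hearts, mutant 3 and wild-type 1, was narrow. The difference was -0.27 ± 0.14 (SE, n = 3 each; limma adjusted p = 0.9999; two-sided exact permutation p = 0.1), with -0.25 within the eI and -0.32 within the eM hearts. That is 1 of 14 without overlap, where 4.67% of all tested probe sets had none, and the other probe sets of Efnb1 did not share it. With the Xist level as a covariate the difference at 1418285_at was -0.46. The hearts with low Xist were mutants 1 and 3, so sex and genotype are not fully separated here.

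Efnb3, the third B-class gene, encodes a ligand known in the mouse for repelling corticospinal axons at the midline. It has 1 probe set, 1423085_at, which read 10.37, 10.46 and 10.96 in mutant hearts and 10.39, 10.38 and 10.86 in wild-type hearts. In both genotypes the eM heart was the high one. Between genotypes the difference was 0.05 ± 0.21 (SE, n = 3 each), with 0.03 within the eI and 0.10 within the eM hearts.

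In the A class, Efna1 encodes ephrin-A1, which is induced by inflammatory cytokines in human endothelial cells. Probe set 1416895_at read 8.80, 8.82 and 8.27 in mutant hearts and 8.63, 8.63 and 8.56 in wild-type hearts. Mutants 1 and 2 were above all wild-type hearts and mutant 3 was below them. Probe set 1448510_at showed the same order more widely, with 8.40, 8.36 and 7.19 in mutant hearts and 7.91, 8.28 and 8.12 in wild-type hearts. Over all hearts the differences were 0.02 and -0.12, averages of opposite values within the eI hearts (0.18 and 0.29) and within the eM pair (-0.29 and -0.93).

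Efna2 and Efna5 encode ligands known for guiding retinal axons to their targets in the mouse midbrain. Efna2 differed by 0.03 at 1444606_at (8.74 ± 0.14 in mutant and 8.71 ± 0.19 in wild-type hearts, SD, n = 3 each) and by 0.04 at 1417521_at. Efna5 read 8.47, 8.55 and 8.69 in mutant hearts and 8.57, 8.63 and 8.88 in wild-type hearts at 1436866_at. Each mutant heart was below the wild-type heart of the same number, by 0.10, 0.08 and 0.19, although the groups overlapped (difference -0.12, 95% interval -0.42 to 0.17, two-sided exact permutation p = 0.4).

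Efna4, a ligand of cranial suture cells in the mouse, gave the difference nearest to 0. It read 8.06, 7.90 and 7.58 in mutant hearts and 7.99, 7.94 and 7.61 in wild-type hearts at 1421784_a_at. The hearts of each number lay close together and the eM hearts were low in both genotypes (difference 0.00, 95% interval -0.40 to 0.40). Efna3, whose product acts between astrocytes and dendritic spines in the mouse hippocampus, differed by 0.01 at 1431170_at, with 5.54 ± 0.30 in mutant and 5.53 ± 0.09 in wild-type hearts (SD, n = 3 each). The dim probe sets of Efna3 (1455344_at) and Efna5 (1421796_a_at) differed by 0.00 and -0.10, and neither separated the genotypes.

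**Figure D2:**
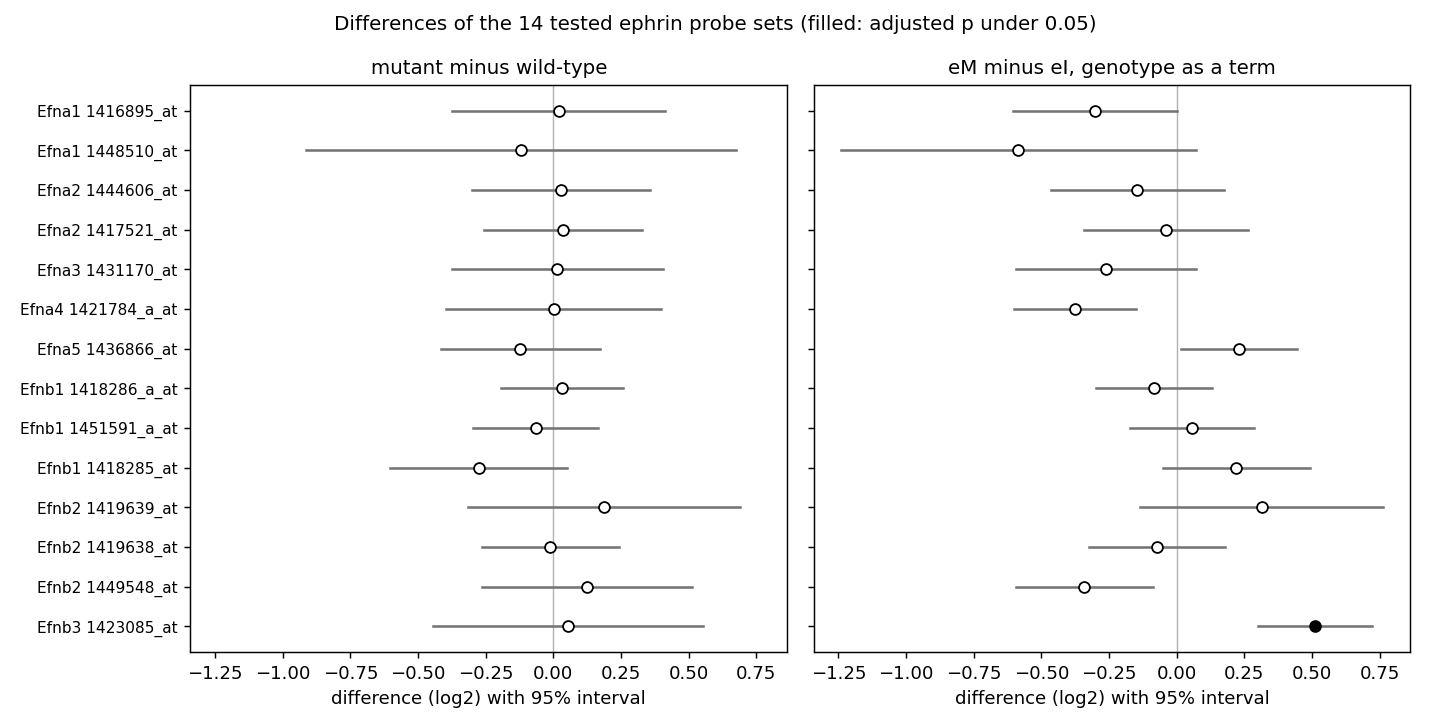
Differences of the 14 tested ephrin probe sets in log2 units with 95% confidence intervals, mutant minus wild-type on the left and eM minus eI hearts on the right, where filled points have an adjusted p under 0.05. Every interval on the left spans 0, and Efnb3 (0.51) is the filled point on the right.

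A second comparison set the 2 eM hearts against the 4 eI hearts, with genotype as a term in the fit. Efnb3 was higher in the eM hearts, and it was the single ephrin probe set past the threshold. It averaged 10.91 in the eM hearts and 10.40 in the eI hearts, a 1.43-fold difference of 0.51 ± 0.09 log2 (SE; 95% interval 0.30 to 0.72; limma adjusted p = 0.0189). The difference was 0.55 among mutant and 0.48 among wild-type hearts, and the eI hearts spread by 0.04 (SD, n = 4). Thus 1 of 14 ephrin probe sets (7.14%) was called, where 11.7% of all tested probe sets were, 6.75% higher and 4.94% lower in eM. A share so near the background is no result about the ephrins as a group.

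The size of the Efnb3 difference changed little when hearts were left out, but its call was lost in 4 of 6 cases. Without mutant 1, mutant 2, mutant 3 or wild-type 3 the difference was between 0.48 and 0.55, but the adjusted p was 0.0822, 0.0879, 0.195 and 0.0781 in limma. Without mutant 3 or wild-type 3 the eM hearts are 1 heart, which the fit assumes to vary like the others. Without mutant 3 limma called 1 of 27022 probe sets of the array. With the Xist level as a further covariate the Efnb3 difference was 0.52 (adjusted p = 0.0733).

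Efna4 narrowly missed the threshold. Its eM hearts averaged 7.60 and its eI hearts 7.97, a difference of -0.37 ± 0.09 (SE; limma adjusted p = 0.0518), with no overlap and with -0.40 among mutant and -0.35 among wild-type hearts. It passed under 4 of the alternative settings, quantile normalization (-0.41, adjusted p = 0.0417) among them. The Efnb2 probe set 1449548_at averaged 5.33 in the eM hearts and 5.67 in the eI hearts without overlap (-0.34 ± 0.10, SE; adjusted p = 0.0891). The brightest Efnb2 probe set, 1419639_at, also had no overlap but the opposite sign, with 10.24 in eM and 9.93 in eI hearts (0.31 ± 0.19, SE, limma adjusted p = 0.318). Single hearts moved this value: it was 0.16 without wild-type 1, 0.066 without wild-type 3 and 0.56 without mutant 3.

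Efna5 averaged 8.79 in the eM hearts and 8.56 in the eI hearts without overlap (0.23 ± 0.09, SE; limma adjusted p = 0.148). For Efna1 the 2 probe sets gave -0.30 and -0.58 (adjusted p = 0.172 and 0.214), values set by mutant 3: among wild-type hearts they were -0.07 and 0.02. The Efna3 value of -0.26 (limma adjusted p = 0.265) rested on mutant 3 too, with -0.51 among mutant and -0.01 among wild-type hearts. Efna2 (-0.14 and -0.04) and the Efnb1 probe sets (-0.08, 0.06 and 0.22) did not pass either. In all, 6 of 14 ephrin probe sets had no overlap between the letters (42.9%), against 43.1% of all tested. At an unadjusted p under 0.05 there were 4 of 14 (28.6%), against 29.2%.

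Markers of several cell types moved with the letters, and their part in the Efnb3 and Efna4 values was not tested. RNA readings split by the letters as well. An 18S ribosomal RNA control probe set read 11.6 and 12.3 in the eM hearts and 9.75 to 10.4 in the eI hearts. The beta-actin readings given above also split fully. The state of the RNA therefore cannot be told apart from the letters at any ephrin. Of all 13572 tested genes, each at its brightest probe set, 4.3% were called higher and 5.7% lower in eM. Neural crest, neuron and Schwann cell markers had list means of 6.97 to 7.22 in the eM hearts and 6.44 to 6.83 in the eI hearts, with 1 of 5 tested genes called higher. Endothelial and endocardial markers ranged from 9.21 to 9.25 in the eM hearts and from 9.39 to 9.46 in the eI hearts, with 3 of 12 called lower and a list median of -0.22. With each gene's probe set of largest spread the eM hearts (8.42 to 8.45) lay inside the eI range (8.38 to 8.60) and the median was 0.018. Macrophage and leukocyte markers were called lower at 4 of 7 tested genes (list median -1.14), red cell markers at 3 of 6 (-1.05) and fibroblast and matrix markers at 2 of 10 (-0.64). Smooth muscle and pericyte markers were called higher at 3 of 8 (list median 0.24) and heart muscle markers at 4 of 15 (0.02). In whole hearts, fewer cells of a type and less RNA per cell cannot be told apart.

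The mutant effect itself was then compared between the letters with an interaction term. In limma 0 of 14 ephrin probe sets passed (smallest adjusted p = 0.909), as did 0 of all 27022 (0%). At an unadjusted p under 0.05 there were 2 of 14 (14.3%), against 5.32% of all tested, and both belonged to Efna1, so they are 1 gene. The eM effect minus the eI effect was -0.47 ± 0.16 at 1416895_at and -1.21 ± 0.27 at 1448510_at (SE), and it rests on mutant 3 and wild-type 3 alone within eM. The sign of the mutant effect was the same within both kinds of heart at 5 of 14 ephrin probe sets. The same count over all tested probe sets is not given here, so nothing is read from those 5. For Efnb2 1419639_at the effect was -0.14 in eM and 0.35 in eI hearts, where wild-type 1 was low.

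**Figure D3:**
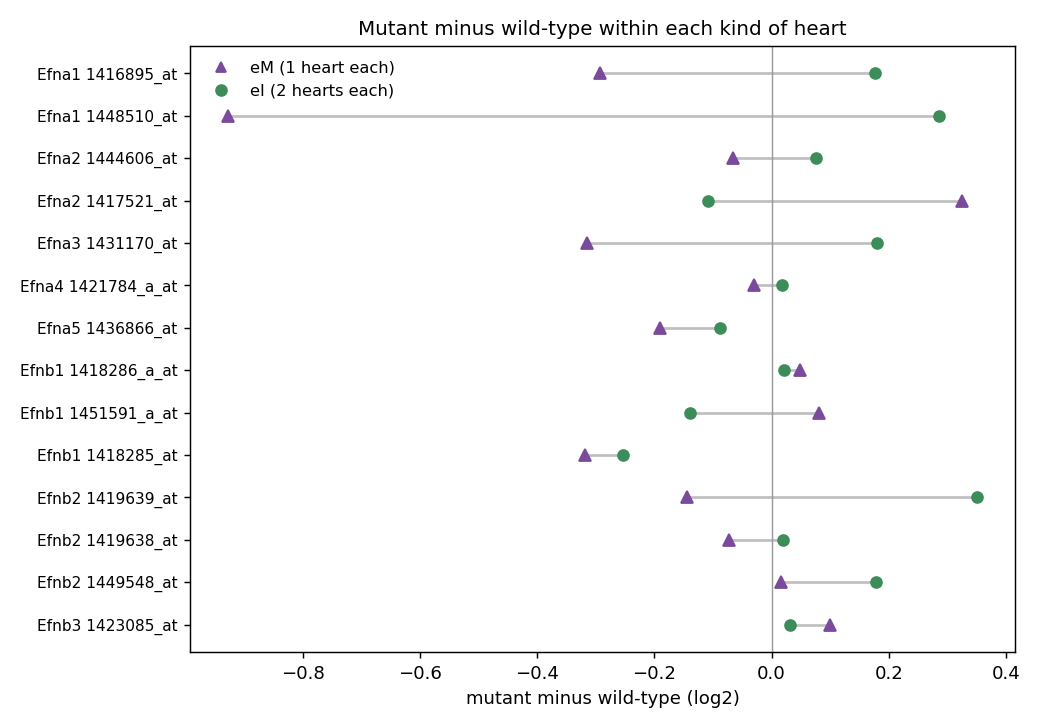
Mutant minus wild-type difference in log2 units for each of the 14 tested ephrin probe sets, within the eM hearts (triangles, 1 heart of each genotype) and within the eI hearts (circles, 2 of each). The widest separation is at Efna1 1448510_at, -0.93 in eM and 0.29 in eI.

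Efna1, Efna3 and Efna4 lie side by side on chromosome 3 in the RefSeq annotation of GRCm38.p6, with no other protein-coding gene between them. All had negative eM minus eI differences at the brightest probe set, as did 55.2% of all tested genes. Among wild-type hearts alone Efna4 differed by -0.35, Efna1 by -0.07 and Efna3 by -0.01. Their neighbours were read for comparison after these values had been seen. Slc50a1, a sugar transporter next to Efna1, differed by -0.38 (limma adjusted p = 0.117), and Dpm3, the gene after it, by -0.14. Adam15, a metalloprotease gene next to Efna4, differed by -0.09. Krtcap2 differed by -0.0086 and Dcst2 by 0.040. None of these 5 neighbours passed the threshold.

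Promoter windows were matched for 7 of the 8 genes in the RefSeq table of GRCm38.p6 (Efnb3 had no entry), each running from 250 bases before to 50 after a gene start. The table holds 2 starts each for Efna1 and Efna3, and for Efna1 the one farther upstream is shown. Windows of Efna1 and Efna4, which lie on either side of Efna3, and of the B-class genes Efnb1 and Efnb2 are shown 5′ to 3′ in the direction of the gene. Those of Efna3 are not shown.
Efna1, chr3:89280902-89281201, minus strand: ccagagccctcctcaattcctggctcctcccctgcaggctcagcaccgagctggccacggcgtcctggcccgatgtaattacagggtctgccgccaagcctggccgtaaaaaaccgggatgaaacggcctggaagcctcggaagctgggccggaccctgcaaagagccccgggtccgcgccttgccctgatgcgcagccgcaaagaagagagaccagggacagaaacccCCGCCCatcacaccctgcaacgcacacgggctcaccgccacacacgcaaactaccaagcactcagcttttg
Efna4, chr3:89337979-89338278, minus strand: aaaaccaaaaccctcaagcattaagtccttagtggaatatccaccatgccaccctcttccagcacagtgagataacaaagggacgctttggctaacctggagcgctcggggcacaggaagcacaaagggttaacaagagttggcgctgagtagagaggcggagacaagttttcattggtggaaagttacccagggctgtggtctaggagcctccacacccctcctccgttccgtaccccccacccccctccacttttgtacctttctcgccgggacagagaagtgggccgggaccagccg
Efnb1, chrX:99135811-99136110, plus strand: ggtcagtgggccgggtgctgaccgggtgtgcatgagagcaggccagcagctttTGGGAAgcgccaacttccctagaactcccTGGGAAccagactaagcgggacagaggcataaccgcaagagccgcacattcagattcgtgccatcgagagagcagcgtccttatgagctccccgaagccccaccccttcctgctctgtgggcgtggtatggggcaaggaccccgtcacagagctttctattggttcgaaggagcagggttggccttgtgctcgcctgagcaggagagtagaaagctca
Efnb2, chr8:8661193-8661492, minus strand: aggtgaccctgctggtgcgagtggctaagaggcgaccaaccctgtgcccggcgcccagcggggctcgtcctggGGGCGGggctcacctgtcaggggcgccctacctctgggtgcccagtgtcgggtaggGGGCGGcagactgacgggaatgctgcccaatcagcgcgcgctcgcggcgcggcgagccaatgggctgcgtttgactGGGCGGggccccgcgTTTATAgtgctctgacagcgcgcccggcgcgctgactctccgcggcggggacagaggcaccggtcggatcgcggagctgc
Capitals mark matches on either strand to any of 4 motifs. The RBPJ core, bound by the DNA-binding factor of the Notch pathway, was searched as TGGGAA. The GC box was searched as GGGCGG and the hypoxia response core as ACGTG. The motif of the TATA box was TATAAA. No marked matches overlap in these windows.

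The Efnb2 window held 3 GC boxes and 1 TATA box, on the opposite strand, and no RBPJ core. The Efnb1 window held 2 RBPJ cores and no GC box. The Efna1 window shown held 1 GC box and the window of its other start 2, and the Efna4 window held none of these letters. Of 32841 windows of the same length in the table, 35.7% held a GC box, 25.6% an RBPJ core, 19.6% the hypoxia core and 13.6% the TATA box. The G and C share was 72.3% for Efnb2, 63.7% for Efna1, 59.7% for Efnb1 and 55.7% for Efna4, against a median of 52.7% over all windows. A match is a description of the letters and not a site of binding.

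Genes whose profile over the 6 hearts lay closest to an ephrin were sought by the root mean square distance after each gene's own mean was taken off. This was done for the ephrins whose spread was above the median of all tested genes, Efna1, Efna3, Efna4, Efnb2 and Efnb3. Closest to Efnb2 were Rab11fip2 (distance 0.04 log2), Nxt2 and Aff4, a subunit of an elongation factor complex. Aff4 read 10.04, 9.93 and 10.16 in mutant hearts and 9.40, 9.93 and 10.25 in wild-type hearts, with wild-type 1 again the lowest. Closest to Efnb3 were Twist2, a mesenchymal transcription factor, Frrs1, and Cited2, a transcriptional cofactor that the mouse heart needs to form its septa. Cited2 read 11.07 in mutant 3 and 10.86 in wild-type 3, and the eI hearts lay between 10.40 and 10.54.

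For the A class, Khnyn (distance 0.02 log2), Ecscr, an endothelial surface protein, and the zinc transporter Slc39a13 were closest to Efna4. Rfxank, Idh3g and Pigc were closest to Efna1, and Pgpep1l, Tmem216 and Pet100 to Efna3. Idh3g, a subunit of a citric acid cycle enzyme, read 12.57, 12.62 and 12.03 in mutant hearts and 12.40, 12.47 and 12.33 in wild-type hearts, low in mutant 3 as Efna1 was. With 6 hearts and 13572 genes to choose from, such likeness is a description.

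The receptors and the rest of the pathway gave the setting for these values. Ephb4 itself read 8.04 ± 0.11 in mutant and 8.03 ± 0.18 in wild-type hearts (SD, n = 3 each), a difference of 0.01 with a 95% interval of -0.29 to 0.32. Of 14 Eph receptors listed, 9 were tested, and limma called 0 between genotypes (median -0.01; 4 higher, 5 lower, and 0 at an unadjusted p under 0.05). The receptor genes of smallest p were Ephb1 (0.31 ± 0.27, SE), Epha7 (-0.13), Epha2 (-0.13) and Epha3 (-0.52 ± 0.58, SE). Between the letters 2 of 9 were called, where 9.99% of all tested genes were, and at so few genes nothing is read from that count. Epha4, a receptor that binds ephrins of both classes, was higher in eM by 0.67 ± 0.11 (SE, limma adjusted p = 0.0185). Epha3, a receptor of A-class ephrins, was lower by 1.36 log2 (-1.36 ± 0.33, SE, adjusted p = 0.0476). Ephb3 (0.37) and Ephb1 (0.31) did not pass.

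**Figure D4:**
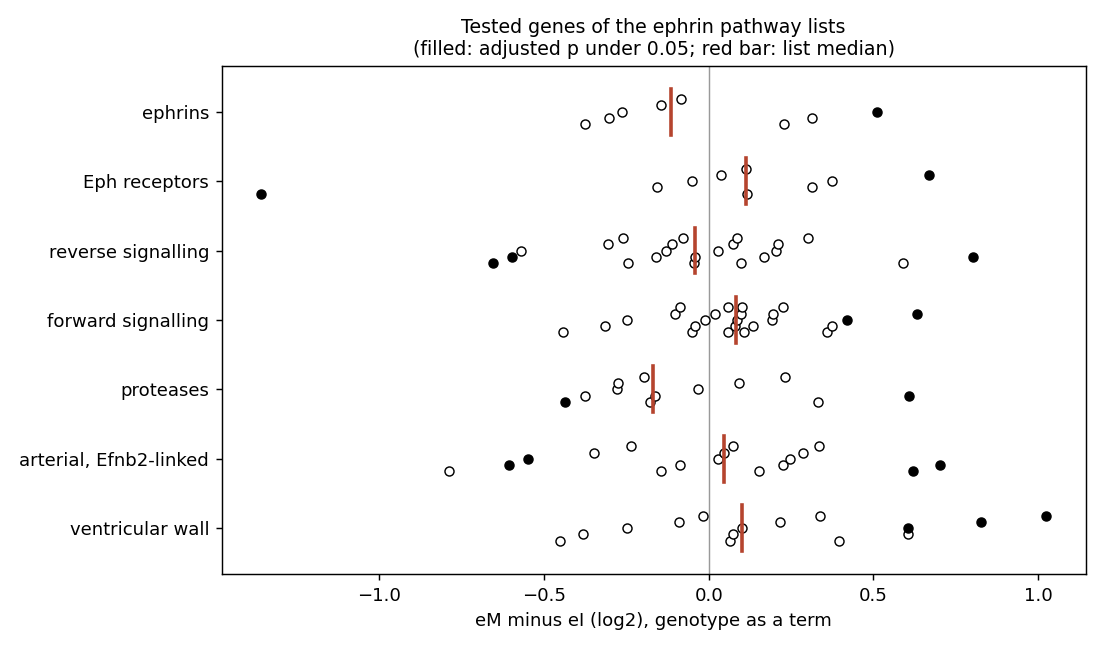
Difference between eM and eI hearts in log2 units, genotype as a term, for the tested genes of 7 lists, with filled points for an adjusted p under 0.05 and a red bar at each list's median. The ephrins span -0.37 to 0.51 with 1 filled point, and the called genes of the other lists lie on both sides of 0 except for forward signalling and the ventricular wall, where they are higher.

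Reverse signalling partners of B-class ephrins had 22 tested genes, 0 of them called between genotypes (median 0.02, with Pick1 at 0.16, Dab2 at 0.17, Stat3 at -0.11 and Nck2 at -0.13). Between the letters 3 of 22 were called, near the 9.99% of all tested genes. Grip1, a PDZ scaffold that binds the tail of B-class ephrins, was higher by 0.80 ± 0.13 (SE, limma adjusted p = 0.0166). Sdcbp, the PDZ adaptor syntenin, was lower (-0.60 ± 0.09, adjusted p = 0.0147), and so was Nck1, an SH2 and SH3 adaptor (-0.66 ± 0.12, adjusted p = 0.0214). Ptpn13, a phosphatase of the same complex, was at 0.59 (adjusted p = 0.0549).

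Forward signalling partners of Eph receptors had 24 tested genes and a median of 0.04 between genotypes, with 0 called (Ptpn11 -0.12, Shb -0.12, Rhoa 0.13, Itsn1 -0.13). Between the letters 2 of 24 were called, again near that share. In the eM hearts the ubiquitin ligase Cbl (0.63 ± 0.13, SE) and the exchange factor Vav3 (0.42 ± 0.09) were called higher (limma adjusted p = 0.0337 and 0.0399). Chn2 (-0.44) and Vav2 (0.38) did not pass.

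Proteases that cut ephrins or Ephs had 0 of 12 tested genes called between genotypes (list median -0.08). Differences, mutant minus wild-type, were negative at 10 of 12, where 6638 of all 13572 tested genes were lower, and this count was not tested. The genes of smallest p were Psen2 (-0.26 ± 0.11, SE), Adam8 (-0.29 ± 0.13), Mmp14 (-0.28) and Mmp9 (-0.15). Between the letters Mmp14, a membrane-bound metalloprotease, was called higher in eM (0.61, limma adjusted p = 0.0259) and the rhomboid protease Rhbdl2 lower (-0.44, adjusted p = 0.047). Mmp9 (-0.28) and Mmp2 (-0.37) did not pass. Calls were thus 1 of 12 higher and 1 of 12 lower, where 4.3% and 5.7% of all tested genes were. Over all tested genes the median was 0.00 between genotypes and -0.03 between the letters.

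Genes that raise or share Efnb2 in arterial endothelium gave 0 calls of 17 between genotypes (median 0.03; Sox17 0.35, Kdr -0.22, Rbpj 0.11, Notch1 -0.14). In the eM hearts Jag1, a Notch ligand, and Hey1, a Notch target, were higher by 0.62 and 0.70 (limma adjusted p = 0.0118 and 0.0183). Sox18 (-0.61, limma adjusted p = 0.0183) and Sox7 (-0.55, adjusted p = 0.0411), transcription factors of endothelium, were lower. The list's other genes, those of the Notch pathway among them, were not called, and the list median was 0.05. So 2 of 17 were called higher and 2 of 17 lower, where 4.3% and 5.7% of all tested genes were. At so few genes nothing is read from these counts.

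Genes of the forming ventricular wall likewise gave 0 calls of 15 between genotypes (median 0.02; Hey2 0.19, Angpt1 0.10, Angpt2 0.26, Adamts1 -0.13). In the eM hearts the proteoglycan gene Vcan (0.83), the hyaluronan synthase Has2 (1.02) and Mycn (0.61), which drives growth of the compact wall, were called higher (limma adjusted p = 0.0136, 0.0253 and 0.0221). Erbb2, the co-receptor for neuregulin, was at 0.40 (limma adjusted p = 0.0526). Calls were thus 3 of 15 higher and 0 lower, where 4.3% and 5.7% of all tested genes were. Nothing is read from that count at so few genes.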

How the data were processed

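Transcript levels of 6 mouse hearts, 3 EphB4 mutant and 3 wild-type, were measured on 6 arrays. The deposited values are log2 intensities that the authors made with RMA, a summary over the probes of each set, per the submitters' processing notes. The version is not given in the sources used here. Depth does not apply to arrays, and the number of arrays sets the precision. Groups and replicate numbers came from titles, letters from descriptions. Each array was taken as 1 animal, as the design text speaks of 6 mice.

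Control probe sets (64 of 45101) and the dimmest 40% by mean were left out. The rest were fitted with limma 3.58.1 in R 4.3.3 (lmFit, eBayes, two-sided, Benjamini-Hochberg over 27022 probe sets, threshold 0.05), for genotype without a covariate, for letters with genotype as a term, and for their interaction. For a listed gene, the brightest probe set naming it alone was used. Intervals are 95%. Of the probe sets, 34945 named 1 gene, 932 several and 9160 were unnamed here. The fits were tested on simulated data whose differences were larger than those of the ephrins. The noise there was independent and, for genotype, held no letters effect. That test says nothing about differences of the ephrins' size. Figures were drawn with matplotlib 3.10.9.

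The members, lists and tests were chosen with earlier results of these data known. Named genes were all ephrins, Ephb4, the 4 genes of smallest p per list and contrast, and the 3 closest profiles per ephrin. The 5 chromosome 3 neighbours were taken by position, after the ephrin values had been seen. Some listed genes are not reported here. Between eM and eI hearts, the marker lists not compared above had medians of 0.05 (arterial endothelium), -0.07 (venous and lymphatic endothelium), 0.02 (epicardium), -1.06 (liver) and -0.24 (lung and foregut epithelium). Same-numbered hearts correlated at 0.18, 0.36 and 0.74 in their deviations from the genotype means, all above 0.1. The numbers, known from the titles alone, were therefore counted as pairs. Hearts of the same number also share their letters, so these correlations cannot tell pairing from the letters. Alternatives were other filters and normalizations, trend and robust moderation, array weights, blocks, the Xist level as a covariate, the eI hearts alone and leaving out each heart.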

Additional observations from a re-analysis of the deposited data

Results flagged for a closer look

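Wild-type 1 lay far from the other eI hearts at the brightest Efnb2 probe set, 1419639_at. It read 9.48, against 10.03 in the nearest of the other eI hearts and 10.12 in the highest. This gap was 0.853 of the range of the 4 eI hearts, above Dixon's critical value for 4 samples. Each of the 17 ephrin probe sets was looked at in this way, and chance flags about 1 in 20 groups. The other Efnb2 probe sets did not place wild-type 1 lowest.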

How the results depend on the processing

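The mutant against wild-type comparison called 0 ephrin probe sets in limma under all alternatives run, among them the replicate block (0) and each heart left out (0 to 0), and so did the interaction of genotype and letters (0 to 0 with an eI heart left out); without an eM heart it has no value. The replicate block changed no call. At an unadjusted p under 0.05, quantile normalization, the letters as a block and no filter gave 1 ephrin probe set each between genotypes. The ephrin count between eM and eI, 1 in the comparison as reported, was 2 with the stricter filter that left out 60%, quantile normalization, trend and robust moderation, or no genotype term (Efna4 and Efnb3 each time), 0 with the Xist level added and 0 to 1 with a heart left out. Without wild-type 3 the 1 called was Efna1 1448510_at (-1.19, adjusted p = 0.0478), not Efnb3; there, as without mutant 3, the eM arm is 1 heart, assumed to vary like the others. The share of all probe sets called between eM and eI was 4.12% with the Xist level added, 6.36% without a filter, and between 0.0037% and 16% with a heart left out, lowest without mutant 3.

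Signs changed at 33 of 221 ephrin values between genotypes and 4 of 193 between letters. Changes of sign by more than the standard error were few. Between genotypes, Efna1 1448510_at was 0.29 in the eI hearts alone, 0.25 with the Xist level and 0.28 without mutant 3 (-0.33 without mutant 1), Efna2 1417521_at was -0.11 in the eI hearts alone, and Efnb2 1419639_at was -0.045 without wild-type 1 (0.37 without wild-type 3). Between letters, Efna1 1448510_at was 0.023 and Efnb1 1451591_a_at -0.052 without mutant 3 (0.17 without wild-type 3), and Efna2 1417521_at was 0.18 without wild-type 3 (-0.26 without mutant 3). With each gene's probe set of largest spread in place of its brightest, the eM minus eI medians were 0.038 for ephrins (-0.11 as reported), 0.21 for Eph receptors (0.11), -0.16 for reverse (-0.04) and 0.22 for forward signalling (0.08), 0.018 for endothelial (-0.22), 0.47 for smooth muscle (0.24) and -1.79 for liver markers (-1.06). The causes were not tested. No scanner files were used, so signal over background is unknown.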
